A study of Mus musculus with 6 samples.

Results

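The genes of the SR proteins, the hnRNP proteins, the SF3a and SF3b complexes and U2AF were examined in lineage-negative (Lin-) cells of blast crisis chronic myeloid leukemia (bcCML). Members were the protein-coding genes whose mouse symbol starts with Srsf, Hnrnp, Sf3a, Sf3b or U2af and whose mean over the 6 libraries was at least 1 in the deposited expression table. This rule gave 42 of the 36083 genes in the table, 10 of them SR genes, 20 hnRNP genes and 12 genes of SF3 and U2AF. Of the 45 rows with such a symbol, 3 were left out. These were Srsf12, which had values above 0 in 2 libraries, and the processed pseudogenes Hnrnpa1l2-ps2 and Hnrnpa1l2-ps.

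The 2 groups differed in the genotype of the donor. KLS cells, which are immature hematopoietic cells, came from B6 mice that were WT or Sdc1-/- for syndecan-1, a cell surface proteoglycan. Both groups carried BCR-ABL and NUP98-HOXA9, the fusion oncogenes that drive this model after retroviral infection. Sorted cells positive for both fusions were transplanted into NSG recipients according to the labels, mice of both cohorts were killed together, and Lin- leukemia cells were sorted from the spleen. The Sdc1-/- allele disrupts the signal peptide sequence, so that mature Sdc1 is kept from the surface, and the labels name no treatment. Each group had 3 libraries, made from 150 ng of RNA and read as single reads of 75 bases.

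SR proteins carry a domain rich in arginine and serine, bind exons and mostly promote the use of nearby splice sites, whereas hnRNP proteins coat nascent RNA and often repress splice sites. U2AF recognizes the end of an intron, its large subunit on the polypyrimidine tract and its small subunit on the terminal AG, and SF3a and SF3b then hold the U2 snRNP on the branch point. SRSF2, SF3B1 and U2AF1 are recurrently mutated in human myeloid malignancy, and many genes of these families control their own mRNA through exons or introns whose inclusion leads to its decay.

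Values are TPM, a transcript abundance relative to the whole library and corrected for transcript length, which the authors had rescaled between libraries. They sum to 1048875 to 1058263 in libraries labelled WT and to a lower 944973 to 951814 in those labelled Sdc1-/-. Depth is unknown, and the labels do not say whether the libraries of a group came from separate mice. The study describes its RNA-seq libraries of Lin- WT bcCML as technical replicates, so SDs and p-values measure only the spread between these libraries and may not cover that between mice. Changes are log2 fold changes of log2(value + 1), libraries labelled Sdc1-/- against those labelled WT, and a gene was called at an adjusted p under 0.05 (limma, Benjamini-Hochberg adjustment over 12155 tested genes). Sdc1 itself stood at 1.75, 1.21 and 1.51 in libraries labelled WT and at 3.85, 3.80 and 4.12 in libraries labelled Sdc1-/-, so the targeted mRNA was higher under the knockout label (log2 fold change 0.99, limma adjusted p = 1.2e-04, Benjamini-Hochberg). The sources used here do not say whether the disrupted allele still makes this mRNA, and an exchange of the labels was not tested, so the direction of every rise and fall given here rests on the labels. The median log2 fold change over all tested genes was -0.0097. With each library scaled to a sum of 1000000, that median moved to 0.12 and the lower share of the calls from 51.7% to 30.9%.

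Cell markers also moved with the group, although the cells were sorted as Lin-. The counts below stand beside 29.3% of all tested genes called higher and 31.3% called lower, 60.7% in all. All 14 neutrophil markers were called lower, their summed value running from 13283 to 14218 in libraries labelled WT and from 4767 to 4906 in those labelled Sdc1-/-, and S100a8 led them at 5279 and 1859. Of 13 tested monocyte and macrophage markers 12 were lower, with summed values of 796 to 814 against 365 to 374, and all 6 tested mast cell and basophil markers were lower, at 480 to 499 against 155 to 168. Of 12 erythroid genes 7 were lower and 3 higher, with sums of 10246 to 10941 against 6028 to 6408. Of 28 proliferation genes 23 were higher and 1 lower, their sum being 2544 to 2627 against 3029 to 3069, and Pcna was the most abundant. Among 13 progenitor and blast genes, 6 were higher and 6 lower, and Cd47 led them at 442 and 298. None of these lists had a gene at 0 in every library. Among the other lists, 5 of 8 tested megakaryocyte genes were lower and 3 higher, 8 of 13 mitochondrially encoded genes were higher, and the B cell markers summed to at most 3.47. The T and NK cell markers summed to 349 to 362 against 301 to 316, most of it Nkg7 at 340 and 286. Of the 4 tested, 1 was higher and 1 lower. Of 3 tested stroma and endothelium genes 1 was higher and 2 lower, and of 7 heat shock and stress genes 4 and 3. The Y-linked genes Eif2s3y, Ddx3y, Kdm5d and Uty were all higher under the Sdc1-/- label, their sum being 0.276 to 0.308 against 68.1 to 78.4, so that donor sex and genotype cannot be told apart. In bulk RNA, fewer cells of a type cannot be told apart from less RNA per cell, and the part of these markers in the results on splicing factors was not tested.

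Splicing factor genes were abundant and mostly higher in the libraries labelled Sdc1-/-. Of the 42 members 32 were called, 31 of them higher and 1, Sf3a2, lower. This is 76.2% of the members, against 60.7% of all tested genes called either way. The 31 higher members make 73.8% against 29.3% of all tested genes, and the lower member 2.38% against 31.3%. In 32 members the groups did not overlap, which is 76.2% against 66.7% of all tested genes. The median log2 fold change was 0.22 over the members, 0.41 over the SR genes, 0.23 over the hnRNP genes and 0.12 over the SF3 and U2AF genes. The members also have higher levels than most genes, with a median WT mean of 102.7 against 14.3 over all tested genes. Among the 1905 tested genes with a WT mean between 67.4, the lower quartile of the members, and 1081, their maximum, 20.997% were called higher and 46.4% lower. This set is not a matched background. It was picked by the WT mean alone, which can favour genes lower under the Sdc1-/- label, whereas the members were picked by the mean of all 6 libraries. It also leaves out the levels of members below that quartile.

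**Figure D1:**
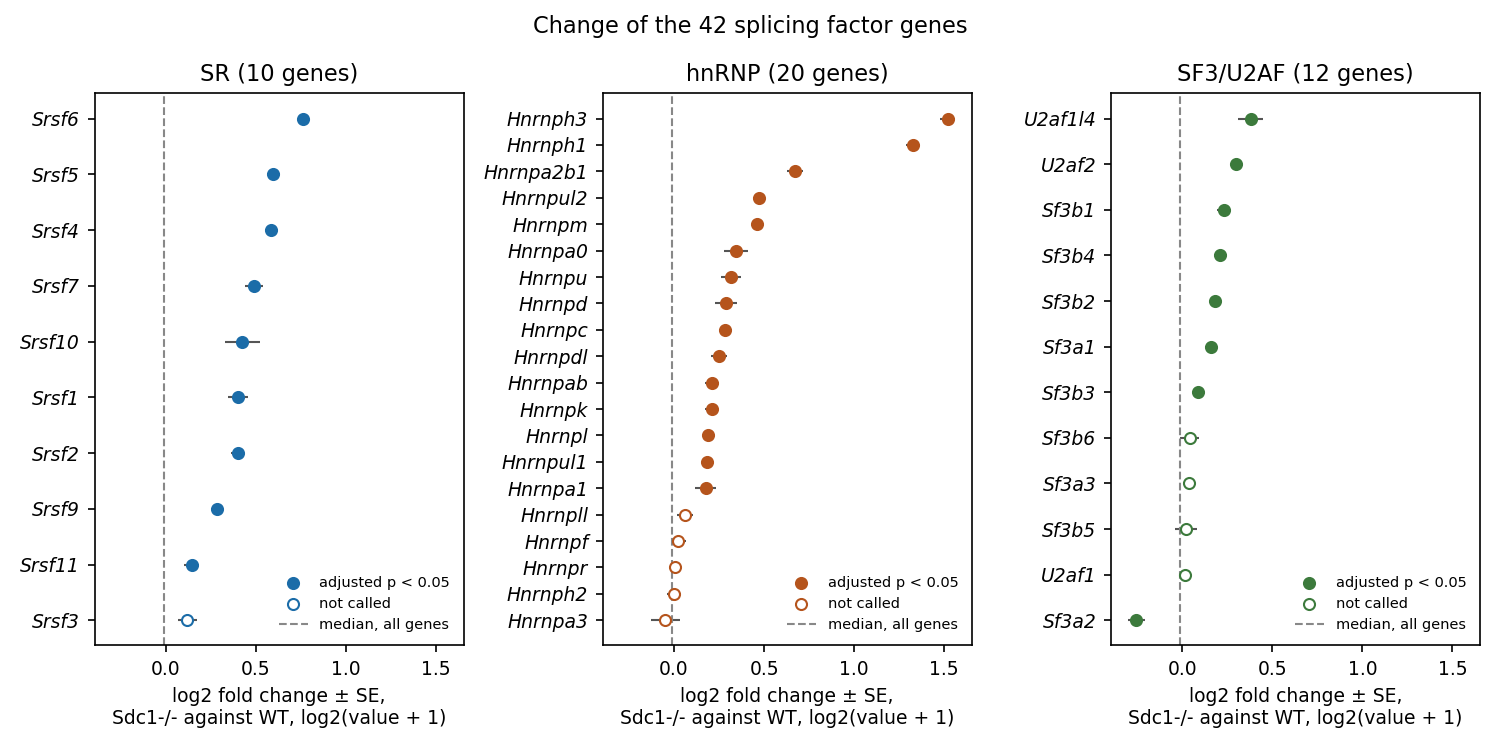
Log2 fold change (libraries labelled Sdc1-/- against WT, log2(value + 1) scale) with its standard error for each of the 42 genes, in panels for the 3 classes; filled points were called at an adjusted p under 0.05 (limma), open points were not, and the dashed line is the median of all tested genes. Hnrnph3 and Hnrnph1 lie farthest to the right, and Sf3a2 is the called point left of the dashed line.

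The number of calls depended on the scaling. With equal library sums 40 members were called higher and 0 lower, with 1 lower at an unadjusted p under 0.05 (limma), against 43.5% of all tested genes called higher and 19.5% called lower under the same scaling. The members gained were Srsf3, Hnrnpf, Hnrnph2, Hnrnpll, Hnrnpr, Sf3a3, Sf3b5, Sf3b6 and U2af1, and Sf3a2 was lost. With quantile normalization 36 members were called higher and 1 lower, against 31.1% and 28.4% of all tested genes, and those gained were Srsf3, Hnrnpf, Sf3a3, Sf3b6 and U2af1. Relative to the median of all genes, the median change of the members was 0.23 with the deposited values and 0.25 with equal library sums, and over all 16 alternatives it lay between 0.22 and 0.31. The 42 genes together made up 0.855% to 0.906% of the summed values of the libraries labelled WT and 1.14% to 1.19% in those labelled Sdc1-/-. For the SR genes this share was 0.148% to 0.154% against 0.207% to 0.219%, for the hnRNP genes 0.581% to 0.628% against 0.783% to 0.820%, and for SF3 and U2AF 0.125% to 0.128% against 0.149% to 0.151%. The ranges of the 2 groups did not overlap in any of the 3 classes. The library totals behind these shares were lower under the Sdc1-/- label, which raises the shares there. The summed value of the 42 genes itself was 9045 to 9519 under the WT label and 10846 to 11251 under the Sdc1-/- label.

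Among the SR genes 9 of 10 rose and 0 fell, also at an unadjusted p under 0.05 (limma). Of all tested genes 29.3% were called higher and 31.3% lower. Srsf6, which promotes exon inclusion and also serves as a splicing repressor in some contexts, had the largest change. Srsf6 (ENSMUSG00000016921, GRCm38 chr2:162931528-162937121, plus strand) stood at 99.3, 101 and 96.9 in libraries labelled WT and at 166, 169.8 and 169 in those labelled Sdc1-/-, or 98.996 ± 2.02 against 168 ± 1.84 (mean ± SD, n = 3 libraries each). Its lowest value under the Sdc1-/- label lay far above its highest under the WT label (log2 fold change 0.76, SE 0.029, adjusted p = 2.7e-06, limma with Benjamini-Hochberg adjustment).

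Srsf5 and Srsf4 are the closest relatives of Srsf6. Srsf5 stood at 141, 143 and 133 against 212, 211 and 208 (log2 fold change 0.60, SE 0.037, adjusted p = 1.7e-05, limma). Srsf4 stood at 42.1, 39.5 and 40.7 against 63.1, 60.1 and 61.9 (log2 fold change 0.59, SE 0.038, adjusted p = 2.0e-05, limma). The groups were apart for both genes. Within each library the share of Srsf6 in the summed value of the 3 genes, which no scaling factor of a library can change, was 35.1% to 35.9% in libraries labelled WT and 37.6% to 38.5% in those labelled Sdc1-/-. These ranges did not overlap.

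Srsf7 and Srsf3 form another related pair and both bind RNA in ways that link splicing to mRNA export. Srsf7 stood at 105, 107 and 109 in libraries labelled WT and at 141, 150.3 and 161 in those labelled Sdc1-/- (log2 fold change 0.49, SE 0.05, adjusted p = 1.7e-04, limma). Srsf3, the SR gene with the highest level, stood at 533, 501 and 559.5 against 546, 577 and 608. Its groups overlapped and it was not called (log2 fold change 0.12, SE 0.054, adjusted p = 0.096, limma, 95% interval -0.0092 to 0.25). Without Sdc1-/- library 1 it passed the threshold with a log2 fold change of 0.16 (limma adjusted p = 0.049), and it also did so with equal library sums (0.27, adjusted p = 0.0047) and with quantile normalization (0.24, adjusted p = 0.0051). Srsf3 shares sequence with the processed pseudogene Gm9761, which had a mean of 44.7 against 18.6. Summed with its pseudogenes, an alternative chosen after seeing the data, Srsf3 had a log2 fold change of 0.049 (limma adjusted p = 0.36). The share of Srsf7 in the sum of Srsf3 and Srsf7 was 16.4% to 17.6% against 20.6% to 20.96%, with no overlap.

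Srsf1, the classical SR protein that acts in both constitutive and alternative splicing, stood at 102, 119 and 109 against 141, 146 and 149 (log2 fold change 0.40, SE 0.057, adjusted p = 8.0e-04, limma). Srsf2, which is mutated in human myeloid disease, stood at 324, 344 and 343 against 442, 457 and 434 (log2 fold change 0.40, SE 0.036, adjusted p = 9.9e-05, limma). In both genes all values under the Sdc1-/- label exceeded all values under the WT label. Srsf2 overlaps Mettl23 and Mfsd11 on the opposite strand. The study made its libraries with a stranded kit, but the strand setting of the authors' quantification is not given in the sources used here. Srsf10 was the most variable SR gene, with a coefficient of variation of 12.9% under the Sdc1-/- label, and rose by 0.42 on the log2 scale. Srsf9 had a log2 fold change of 0.28.

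Srsf11 had the smallest called change of an SR gene, 0.14 (limma adjusted p = 0.025). It missed the threshold without WT library 1 (adjusted p = 0.071 by limma), without Sdc1-/- library 2 (0.074) and without Sdc1-/- library 3 (0.077).

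**Figure D2:**
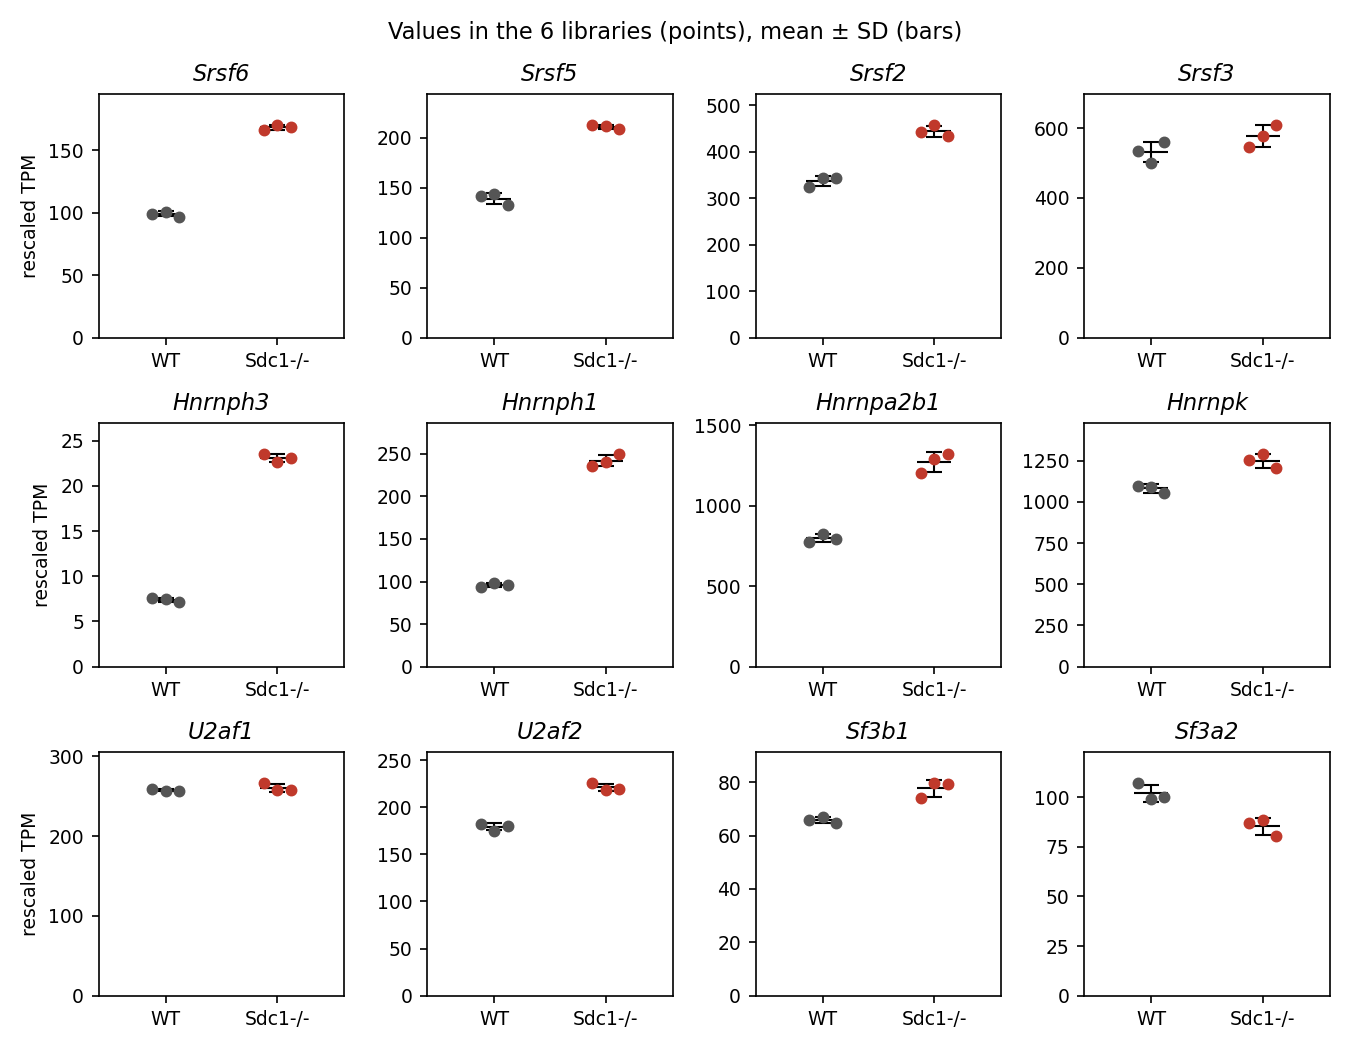
Rescaled TPM (y axis, from 0) of 12 splicing factor genes in each of the 6 libraries (points), with the mean and SD of each group of 3 libraries (bars). The groups are apart in every gene drawn but Srsf3 and U2af1, and Sf3a2 is the gene drawn that is lower under the Sdc1-/- label.

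Of the 20 hnRNP genes 15 rose, 0 fell, also at an unadjusted p under 0.05 (limma), and 5 were not called. The 15 are 75.0% of the class, against 29.3% of all tested genes called higher and 31.3% called lower. The largest changes were in the H and F family, whose proteins bind runs of guanine in RNA and regulate exon choice and polyadenylation. Hnrnph3 (ENSMUSG00000020069, GRCm38 chr10:63014664-63024217, minus strand), the member with the lowest level of all 42 genes in libraries labelled WT, stood at 7.57, 7.51 and 7.15 there and at 23.5, 22.7 and 23.1 in those labelled Sdc1-/-. The means were 7.41 ± 0.22 and 23.1 ± 0.41 (SD, n = 3 libraries each), a ratio of 3.11 (log2 fold change 1.52, SE 0.041, adjusted p = 9.3e-07, limma with Benjamini-Hochberg adjustment).

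Hnrnph1 (ENSMUSG00000007850, GRCm38 chr11:50376990-50386528, plus strand) is the more abundant of the H genes that rose. It stood at 93.6, 98.7 and 95.9 against 236, 241 and 249, a ratio of means of 2.52 (log2 fold change 1.32, SE 0.035, adjusted p = 8.7e-07, limma). Both genes moved far beyond the spread between libraries. Of all tested genes 235 (1.93%) had a log2 fold change of at least 1, and Hnrnph1 and Hnrnph3 were the 2 members among them.

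Hnrnph2 and Hnrnpf were not called. Hnrnph2, an X-linked gene, stood at 75.1, 79.5 and 73.8 against 73.96, 77.3 and 76.8, with a log2 fold change of -0.0018 and a 95% interval of -0.093 to 0.09 (limma). Hnrnpf, the most abundant gene of the family, stood at 719.8, 783 and 748 against 746, 793 and 749.6, with an interval of -0.076 to 0.12 around 0.024 (limma). In both genes the groups overlapped. With equal library sums both were called higher, Hnrnph2 at 0.14 and Hnrnpf at 0.17, which is 0.02 and 0.05 above the median of all genes. With quantile normalization Hnrnpf was called higher as well (0.12, limma adjusted p = 0.0096), 0.11 above that median. Sequence shared with other genes covers 66.2% of the 31-base words of Hnrnpf. The 6 pseudogenes that each share at least 100 of these words summed to means of only 7.65 and 7.23 in the 2 groups.

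The makeup of the family therefore differed between the groups with any scaling factor per library. Hnrnph1 held 10.2% to 10.4% of the summed H and F value in libraries labelled WT and 21.2% to 22.7% in those labelled Sdc1-/-. Hnrnph3 held 0.774% to 0.845% against 2.0004% to 2.18%. The share of Hnrnpf went the other way, being 80.3% to 80.9% under the WT label and 68.2% to 69.9% under the Sdc1-/- label. That of Hnrnph2 was 7.98% to 8.38% against 6.81% to 6.99%. None of these ranges overlapped. A two-sided exact permutation test of each of the 4 shares returned p = 0.1, which is the lowest value this design can reach.

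Sequences just upstream of the RefSeq start sites (GRCm38.p6) are shown for Hnrnph1 and Hnrnpf, relatives of which the first was called higher and the other was not called, and for Srsf6 and Hnrnpa2b1, which had the largest rise of an SR gene and of an A or B gene. They run 5′ to 3′ on the strand of the gene, leave out bases that GENCODE M21 places in an exon, and have in capitals the motifs found. Of 9 motifs searched on both strands, those in these stretches are CCGGAA, bound by ETS factors, CCAAT, bound by NF-Y, and the GC box GGGCGG, bound by SP factors, and overlapping matches were all counted.
Hnrnph1, chr11:50376740-50376989, plus strand: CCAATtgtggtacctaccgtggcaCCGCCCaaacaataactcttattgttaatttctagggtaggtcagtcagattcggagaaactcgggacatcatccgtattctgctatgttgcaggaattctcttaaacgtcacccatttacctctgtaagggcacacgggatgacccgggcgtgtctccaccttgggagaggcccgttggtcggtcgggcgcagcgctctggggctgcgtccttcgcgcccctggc
Hnrnpf, chr6:117900090-117900323, plus strand: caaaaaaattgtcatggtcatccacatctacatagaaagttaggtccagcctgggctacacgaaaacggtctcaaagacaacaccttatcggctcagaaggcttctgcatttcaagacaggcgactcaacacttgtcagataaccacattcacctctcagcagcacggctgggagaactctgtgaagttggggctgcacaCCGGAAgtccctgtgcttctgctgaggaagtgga
Srsf6, chr2:162931258-162931507, plus strand: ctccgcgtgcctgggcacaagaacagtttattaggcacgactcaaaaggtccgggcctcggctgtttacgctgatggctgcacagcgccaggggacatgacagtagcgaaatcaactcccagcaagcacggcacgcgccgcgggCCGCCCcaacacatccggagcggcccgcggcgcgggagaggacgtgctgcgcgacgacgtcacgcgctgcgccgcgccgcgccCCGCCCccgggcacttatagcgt
Hnrnpa2b1, chr6:51469895-51470144, minus strand: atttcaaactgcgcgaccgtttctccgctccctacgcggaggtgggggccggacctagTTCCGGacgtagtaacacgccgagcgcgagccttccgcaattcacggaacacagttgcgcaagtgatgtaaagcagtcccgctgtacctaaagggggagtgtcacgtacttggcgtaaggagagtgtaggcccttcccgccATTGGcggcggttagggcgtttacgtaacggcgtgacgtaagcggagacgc

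The 4 stretches hold different motifs: CCAAT and the GC box in Hnrnph1, the ETS motif alone in Hnrnpf, 2 GC boxes in Srsf6, and the ETS motif and CCAAT in Hnrnpa2b1. Windows of 250 bases were given for 37 of the 42 members. The GC box was found in 27 (73.0%) of them, against 60.1% of 8684 windows of tested protein-coding genes and 33.2% of all 27018 windows. The ETS motif was found in 17 (45.9%), against 24.9% and 12.3%, and by class in 6 of 10 SR genes, 5 of 18 hnRNP genes and 6 of 9 SF3 and U2AF genes. CCAAT was found in 18 (48.6%), against 37.4% and 34.3%, of which 12 were hnRNP genes. The TATA box TATAAA was found in 4 windows of members (10.8%, against 5.87% of the windows of tested genes), and the NRF1 motif GCGCATGCG and the E-box CACGTG in 2 each (5.41%, against 3.39% and 8.69%). The YY1 motif AAGATGGCG, the CRE TGACGTCA and the E2F motif TTTGGCGC were found in 0 windows, against 1.24%, 2.78% and 0.887% of the windows of tested genes. The median GC content of the members' windows was 61.6%, against 60.0% in tested genes. The median number of CG dinucleotides was 23, against 16 in tested genes, and the ETS motif and the GC box both contain CG. A match of letters is a description and does not show binding.

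The A and B family binds short AG-rich motifs and acts against exon inclusion in many transcripts. Hnrnpa2b1, the second most abundant member, stood at 777, 827 and 795 in libraries labelled WT and at 1204, 1294 and 1320.5 in those labelled Sdc1-/- (log2 fold change 0.67, SE 0.044, adjusted p = 2.2e-05, limma). This was the largest rise in absolute level of all 42 genes, from 799.6 to 1273. Its share of the A and B sum was 35.3% to 36.9% against 45.4% to 45.9%, with no overlap.

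Hnrnpa1, a relative whose protein shuttles between nucleus and cytoplasm, stood at 699, 745 and 762 against 768, 847 and 881. It was called with a small change (log2 fold change 0.18, SE 0.058, adjusted p = 0.034, limma), and its groups were apart by a narrow margin. The call was lost without WT library 1 (log2 fold change 0.14, limma adjusted p = 0.10), WT library 2 (0.19, 0.061), Sdc1-/- library 2 (0.16, 0.10) or Sdc1-/- library 3 (0.13, 0.099), and also with no minimum mean (adjusted p = 0.089) and with no trend in the variance model (0.053). Sequence shared with other genes covers 29.9% of its words, and the pseudogene Gm10052 alone had a mean of 178 against 181.

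Hnrnpa0 rose by 0.34 on the log2 scale, whereas Hnrnpa3 was not called (-0.049, 95% interval -0.24 to 0.14). Hnrnpa3 had the largest spread of any member in libraries labelled WT, 557, 694 and 572, against 586, 583 and 585 under the Sdc1-/- label. Its processed pseudogene Gm5641 stood at 307, 245 and 326 against 394, 461 and 485, so WT library 2 was the highest for the gene and the lowest for the pseudogene. Summed, the pair stood at 864, 940 and 898 against 980, 1043 and 1069. With each member summed with its pseudogenes, an alternative chosen after seeing the data, Hnrnpa3 was called higher (log2 fold change 0.20, limma adjusted p = 0.0087) and no other call among the members changed.

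**Figure D3:**
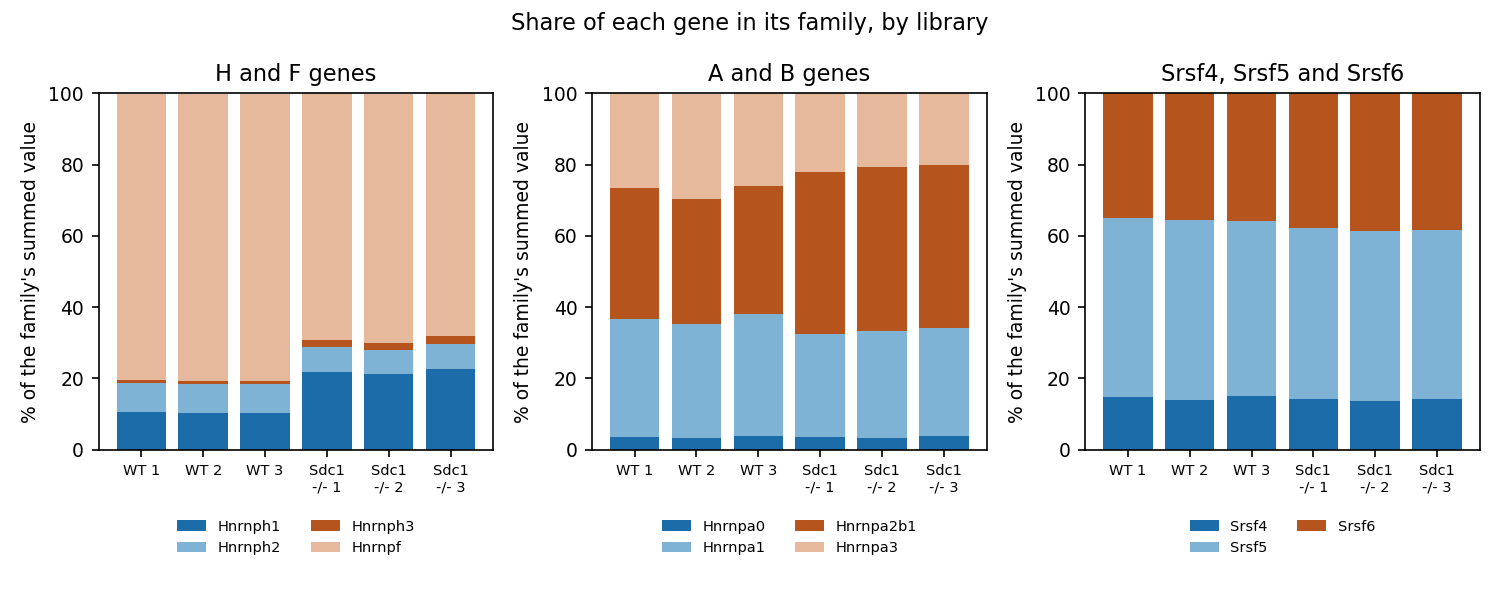
Share of each gene (% of the summed value of its family, y axis) in each of the 6 libraries for the H and F genes, the A and B genes, and Srsf4, Srsf5 and Srsf6. The share of Hnrnph1 is 10.2% to 10.4% under the WT label and 21.2% to 22.7% under the Sdc1-/- label, and that of Hnrnpa2b1 35.3% to 36.9% and 45.4% to 45.9%.

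Hnrnpk, which binds C-rich RNA and had the highest level of all members, stood at 1099, 1091 and 1053 in libraries labelled WT and at 1252, 1288 and 1207 in those labelled Sdc1-/- (log2 fold change 0.21, SE 0.035, adjusted p = 0.002, limma). In the order of levels under the WT label it was followed by Hnrnpa2b1 (777 to 827), Hnrnpf (720 to 783) and Hnrnpa1 (699 to 762), where the ranges of neighbours overlapped, whereas Hnrnpk (1053 to 1099) lay above all of them. Hnrnpc, a core hnRNP that binds uridine tracts, stood at 319.9, 329 and 311 against 378, 394 and 399 (log2 fold change 0.29, SE 0.035, adjusted p = 4.0e-04, limma). The groups were apart in both genes.

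Hnrnpm, a splicing regulator that binds GU-rich RNA, stood at 154, 154 and 148 against 206, 209.6 and 215 (log2 fold change 0.46, SE 0.031, adjusted p = 2.4e-05, limma). The start of the gene overlaps the end of March2 on the same strand, which had a mean of 42.1 against 31.5. Hnrnpu, a protein of the nuclear matrix that also binds chromatin, stood at 117, 130.1 and 117 against 143, 156 and 155 (log2 fold change 0.32, SE 0.056, adjusted p = 0.0023, limma). Its relative Hnrnpul2 stood at 38.9, 39.6 and 39.3 against 53.9, 54.6 and 55.9 (log2 fold change 0.47, SE 0.03, adjusted p = 2.1e-05, limma). Hnrnpu overlaps Cox20 on the opposite strand, which had a mean of 31.04 against 43.5. In Hnrnpm, Hnrnpu and Hnrnpul2 the groups were apart, and the share of Hnrnpul2 in the sum of Hnrnpu, Hnrnpul1 and Hnrnpul2 was 16.4% to 17.2% against 18.7% to 19.3%.

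The other called hnRNP genes were Hnrnpd (0.29), Hnrnpdl (0.25), Hnrnpab (0.21), Hnrnpl (0.19) and Hnrnpul1 (0.19), given as log2 fold changes. Hnrnpd, known as AUF1 and a regulator of the decay of AU-rich mRNAs, held 46.1% to 48.9% of its sum with Hnrnpdl and Hnrnpab against 48.8% to 49.1%, ranges that overlapped. Hnrnpll, which regulates splicing of Ptprc in lymphocytes, and Hnrnpr were not called, with 95% intervals of -0.04 to 0.16 and -0.069 to 0.085 (limma).

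Of the 12 genes of SF3 and U2AF, 7 rose, 1 fell and 4 were not called. This is 66.7% called, near the 60.7% of all tested genes, with 58.3% higher against 29.3% and 8.33% lower against 31.3%. Groups did not overlap in 66.7% of the class, the same share as in all tested genes (66.7%). Sf3b1, the branch point protein most often mutated in myelodysplasia with ring sideroblasts, stood at 65.7, 67.02 and 64.8 against 74.01, 79.5 and 79.5 (log2 fold change 0.23, SE 0.038, adjusted p = 0.0016, limma). Its partner Sf3b4 stood at 65.7, 60.9 and 64.9 against 74.5, 73.1 and 74.5 (log2 fold change 0.21, SE 0.037, adjusted p = 0.0022, limma), and Sf3b2 had a log2 fold change of 0.18. Sf3a1, a core subunit of SF3a, stood at 38.9, 39.04 and 39.4 against 44.6, 44.1 and 42.8 (log2 fold change 0.16, SE 0.031, adjusted p = 0.0038, limma). All of these had groups that were apart.

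Sf3b3 had the smallest called change of all members, 0.088 (limma adjusted p = 0.028). It missed the threshold without WT library 1 (adjusted p = 0.063 by limma), WT library 2 (0.052), WT library 3 (0.082), Sdc1-/- library 1 (0.058) or Sdc1-/- library 2 (0.11), and with no trend in the variance model (0.066). Sf3b6, the SF3 or U2AF gene with the highest level, stood at 269, 299 and 265 against 278, 298 and 282, and its groups overlapped (log2 fold change 0.043, SE 0.053, adjusted p = 0.51, limma, 95% interval -0.083 to 0.17). Sf3b6 was called higher with equal library sums (0.19, limma adjusted p = 0.017) and with quantile normalization (0.15, 0.025), at 0.07 and 0.14 above the median of all genes. Sf3b5 and Sf3a3 were also not called, with intervals of -0.12 to 0.16 and -0.039 to 0.12.

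Sf3a2 (ENSMUSG00000020211, GRCm38 chr10:80798198-80804924, plus strand), the SF3a subunit that contacts the U2 snRNP, was the member that fell. It stood at 107, 98.8 and 100.03 in libraries labelled WT and at 86.8, 88.5 and 80.6 in those labelled Sdc1-/- (log2 fold change -0.25, SE 0.048, adjusted p = 0.0033, limma), and the groups were apart. The value is uncertain. Although the library kit was stranded, the strand setting of the quantification is not given. The start of the gene overlaps the start of Plekhj1 on the opposite strand, which stood at 108, 101 and 111 against 151, 145 and 130, and the sum of both genes was 215, 200.1 and 211 against 238, 234 and 210.5, where the groups overlapped. With equal library sums the change was -0.11 (limma adjusted p = 0.073) and lay 0.23 below the median of all genes, against 0.24 with the deposited values.

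U2af2, the large subunit, stood at 183, 175 and 181 against 225, 219 and 219 (log2 fold change 0.30, SE 0.03, adjusted p = 1.6e-04, limma). U2af1, the small subunit, stood at 259, 256 and 257 against 266, 258 and 258 and was not called (log2 fold change 0.016, SE 0.027, adjusted p = 0.63, limma, 95% interval -0.048 to 0.081). U2af1l4, a paralog of the small subunit, stood at 31.7, 31.6 and 26.6 against 39.8, 39.8 and 38.04 (log2 fold change 0.38, SE 0.07, adjusted p = 0.0028, limma). Sequence shared with other genes covers 49.6% of the words of U2af1l4. Gm49396, with 1087 of them, had a mean of 0.337 against 2.77. Within libraries, U2af2 made up 40.6% to 41.3% of the sum of U2af1 and U2af2 under the WT label and 45.9% to 45.97% under the Sdc1-/- label, and U2af1l4 9.38% to 10.97% against 12.9% to 13.4% of the sum with U2af1. Neither pair of ranges overlapped. With equal library sums U2af1 was called higher (0.16, limma adjusted p = 0.0012), 0.04 above the median of all genes, and with quantile normalization it was also called (0.12, adjusted p = 0.0057), 0.11 above that median.

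Genes of the splicing machinery outside these families were examined as 8 lists. Of 172 tested genes 100 were called higher (58.1%) and 17 lower (9.88%), against 29.3% and 31.3% of all tested genes. Their median log2 fold change was 0.19. SR-related proteins, which share the arginine and serine rich domain but not the usual architecture, had 21 of 23 higher and a median of 0.52. Of the kinases and transport factors of SR proteins 7 of 10 were higher and 1 was lower (median 0.46). Genes of the exon junction complex and of mRNA export and decay had 13 of 20 higher and 0 lower (median 0.31). At an unadjusted p under 0.05 (limma), 0 genes of this list and 0 SR-related genes were lower.

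In SR-related genes the largest change was that of Rsrp1, a small arginine and serine rich protein, which stood at 26.6, 30.2 and 26.9 in libraries labelled WT and at 138, 151 and 155 in those labelled Sdc1-/- (log2 fold change 2.37, SE 0.063, adjusted p = 8.9e-07, limma). Clk1, a kinase that phosphorylates SR proteins, stood at 23.7, 25.6 and 23.99 against 49.2, 52.3 and 56.2 (log2 fold change 1.07, SE 0.056, adjusted p = 8.8e-06, limma). Nxf1, the receptor that carries mRNA out of the nucleus, stood at 57.2, 65.8 and 63.3 against 131, 129 and 118 (log2 fold change 1.01, SE 0.063, adjusted p = 1.9e-05, limma). The groups were far apart in all of these genes. Dyrk1b, a kinase at a low level, was the gene of the kinase list that fell, from 1.59 to 1.10 (log2 fold change -0.31, limma adjusted p = 0.0098).

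Lists of the core machinery lay closer to the background. Of 28 snRNP proteins 13 were higher and 2 lower (median 0.12), of 27 tri-snRNP and step factors 13 and 3 (median 0.096), and of 23 genes of the Prp19 complex and catalytic core 8 and 7 (median 0.012). The largest rise and fall were those of Snrnp48 (0.72) and Snrnp35 (-0.28), both proteins of the minor spliceosome, in the first list. They were those of the helicase Dhx16 (0.98) and of Prpf18 (-0.24), which acts in the last step of splicing, in the tri-snRNP list, and of Bud13 (0.50) and the cyclophilin Ppie (-0.23) in the Prp19 list. These are log2 fold changes, all called by limma.

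Of 15 hnRNP proteins under other symbols 8 were higher and 1 lower (median 0.11). Taf15, an RNA-binding protein that also associates with TFIID, stood at 55.5, 51.7 and 49.98 against 100.1, 99.1 and 107 (log2 fold change 0.95, SE 0.049, adjusted p = 8.5e-06, limma). Ptbp3, a paralog of the polypyrimidine tract binding protein, stood at 94.2, 100.1 and 97.6 against 75.9, 74.2 and 72.4 (log2 fold change -0.39, SE 0.035, adjusted p = 1.0e-04, limma). The groups were apart in opposite directions. Of 26 other splicing regulators 17 were higher and 3 lower (median 0.28), from Esrp2, an epithelial regulator at a low level here (3.84 against 7.36, log2 fold change 0.78), to Qk, the quaking protein (57.8 against 50.5, -0.19).

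**Figure D4:**
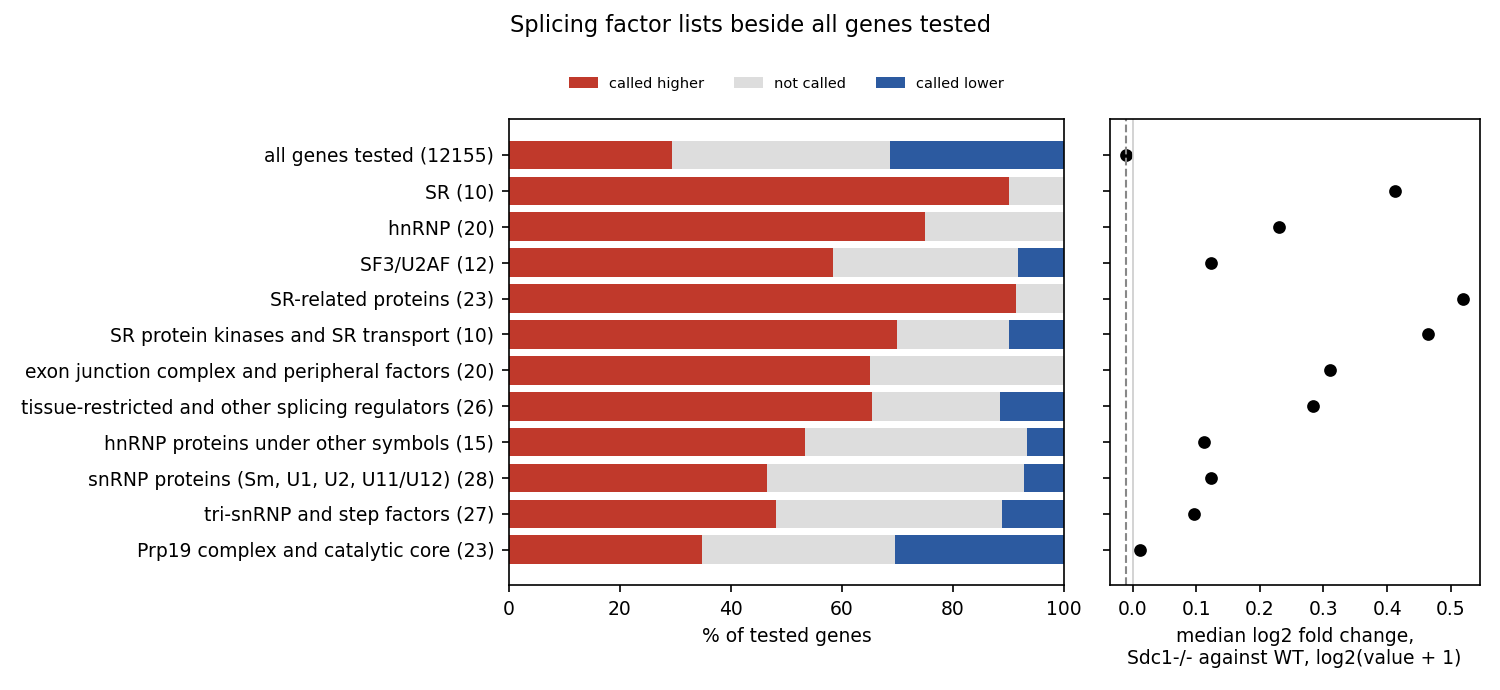
Left, percentage of the tested genes called higher, not called and called lower under the Sdc1-/- label (limma, adjusted p under 0.05) for all genes, the 3 member classes and the 8 other splicing lists, with the number of tested genes in parentheses; right, the median log2 fold change of each, with the median of all genes as a dashed line. SR genes and SR-related proteins have the highest shares called higher, 90.0% and 91.3%, and the Prp19 list the lowest, 34.8%, against 29.3% of all tested genes.

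The annotation of the members has features that their selection did not use. In GENCODE M21, 23 of the 42 genes (54.8%) have a transcript marked for nonsense-mediated decay, against 30.2% of 10920 tested protein-coding genes, and 32 (76.2%) have a transcript with a retained intron, against 60.4%. The deposited values sum all transcripts of a gene, so that coding and unproductive transcripts could not be told apart. The members lie on 17 chromosomes. At least 100 words of 31 bases were shared with another gene that had deposited values by 26 members, and with such a pseudogene by 17. The levels of these members depend on how the authors' quantification divided such reads. Genes without deposited values and genes sharing fewer words were not counted, so other members can share sequence too. In Srsf4, 41.0% of the words occur in other genes.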

How the data were processed

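RNA-seq was measured in 3 libraries labelled WT and 3 labelled Sdc1-/-, grouped by the labels of the submitters. The authors made the values with kallisto and sleuth 0.30.0 on mm10, per the submitters' processing notes, and deposited a signal per gene, TPM rescaled between libraries. The rescaling step is not given in the sources used here. Read depth is unknown, so no interval for counting error is given, and the number of libraries limits the precision. The design assumed TPM, and its test was kept for the rescaled values. A second deposited table holds the authors' own comparison (p-values, q-values, effect sizes and variances), which was not used.

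Symbols, biotypes and positions came from GENCODE M21 (35533 of 36083 identifiers matched). Genes below a mean of 1 were removed, which left 12155. Their log2(value + 1) was fitted by group, with no other term, in limma 3.58.1 (R 4.3.3), using trended empirical Bayes variances. The two-sided p-values were adjusted over all tested genes by the Benjamini-Hochberg method. Simulated data were used to test the fit. Shared sequence was counted as 31-base words of GENCODE transcripts on either strand. Pairs of genes needed at least 100 shared words and deposited values for the other gene. The percentages of a gene's words that were shared took in every other GENCODE gene. Promoter windows came from RefSeq (GRCm38.p6). Other steps used Python 3.11.15 with numpy 2.4.6, pandas 2.3.3, scipy 1.17.1 and matplotlib 3.10.9.

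The members and all lists were chosen with earlier results of these data known. Values in full were given for the 4 largest called rises and falls of each class, its most abundant gene and a fixed set of well known members. Further members and genes that share sequence with them were named after their values were seen. In each other splicing list the called genes with the largest rise and fall were named. The 16 alternatives changed the pseudocount, the minimum mean, the scaling, the variance model, the pairing, the libraries used and the treatment of pseudogenes. Protein sequences were not analysed here.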

Additional observations from a re-analysis of the deposited data

How the results depend on the processing

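The counts of members called and called higher stayed within 1.5 times the reported ones under all 16 alternatives, and no value changed sign past the threshold. The count of members called lower fell from 1 to 0 with equal library sums. Without a minimum mean, 24714 genes were tested and the share of all genes called fell to 32.5%, because more genes near 0 entered the test. With a library left out in turn, 29 to 32 members were called, against 53.3% to 57.3% of all tested genes.

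The replicate numbers were not shown to pair the libraries: deviations of same-numbered libraries correlated at 0.15, -0.0083 and 0.018, and the library labelled WT 2 correlated best with Sdc1-/- 3 (0.14). With the number as a replicate block, 33 members were called, against 62.7% of all tested genes. Srsf3 (0.12, limma adjusted p = 0.046) was the 1 gained.

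Precision is limited by 3 libraries a group, an unknown depth, sequence shared between genes and pseudogenes, and markers and Y-linked genes that move with the group.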
